A study of Mus musculus with 45 samples.

Results

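The subunits of the mitochondrial respiratory chain and of ATP synthase were followed in the hearts of 45 mice. Members were taken by symbol: every gene whose name starts with Ndufa, Ndufb, Ndufc, Ndufs or Ndufv, Uqcr, Cox4 to Cox8, Atp5 or Sdha to Sdhd, without the Ndufaf assembly factors, and read from a probe set annotated to 1 gene. This gave 79 of the 12394 genes on the array, carried by 150 probe sets. Where a gene had several, the one with the greatest average signal was read. Of these, 34 belong to complex I, 4 to complex II, 8 to complex III, 16 to complex IV and 17 to ATP synthase, here called complex V. A further 8 probe sets of such subunits name several genes and were left out, so that Ndufa11, Ndufb4 and Ndufs6, for instance, were not followed.

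All animals were male C57BL/6 mice. Regular weight mice (RW) ate regular PMI pellets with about 5 kcal% fat throughout. Diet-induced obese mice (DIO) ate D12492 pellets with 60 kcal% fat from 6 weeks of age, for 9 weeks before the exposures began. At 15 weeks of age the mice were placed in nose-only chambers for 5 h per day and had 8 exposures within 2 weeks, either to filtered air as sham control (SC), to mainstream cigarette smoke (MS) or to sidestream cigarette smoke (SS). Hearts were taken on the following day. RNA of each heart was hybridised to 1 array. Among the RW mice 8 arrays were from air (RW-SC), 8 from mainstream (RW-MS) and 7 from sidestream smoke (RW-SS), and among the DIO mice these numbers were 8, 6 and 8. The title of the series asks whether a high-fat diet with obesity impairs the heart's response to smoke, and the comparisons below ask this of the oxidative machinery.

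As background, the respiratory chain passes electrons from NADH (complex I) and succinate (complex II) through ubiquinone to complex III, then through cytochrome c to complex IV, which reduces oxygen. Complexes I, III and IV pump protons, and ATP synthase uses their return flow to make ATP, the main energy source of the beating heart. Most subunits are encoded in the nucleus, and the factors NRF1, GABP (also called NRF2), the estrogen-related receptors (ERR) and YY1 are known to act at many of their promoters. Some subunits of complex IV exist in paired forms. Cox6a2, Cox7a1 and Cox8b are the forms of heart and skeletal muscle, and Cox6a1, Cox7a2 and Cox8a are those of most other tissues.

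Promoter stretches of 4 members are shown because the results below discuss these genes. Cox6a1 tracked fat transcripts, and Sdha was the complex II subunit past the threshold. Ndufa3 had the smallest adjusted p of the members for diet in air and under mainstream smoke, but not under sidestream smoke. Atp5g3 was higher under the high-fat diet only in the mean over exposures, a contrast chosen after the values were seen. It lost that call after quantile normalization and passed in none of the other 11 comparisons. They come from RefSeq windows that reach from upstream of the annotated start to 50 bases after it, build GRCm38.p6, written 5′ to 3′ on the gene's strand. Capitals mark matches on either strand to the NRF1 motif (the runs of 10 capitals), CCGGAAG (GABP) and AAGGTCA (ERR). Cox6a1 is at chr5:115348959-115349135 on the minus strand, with 2 NRF1 matches and 1 GABP match. Sdha is at chr13:74350241-74350353, minus strand, with 3 NRF1 matches. Atp5g3 is at chr2:73911357-73911393, minus strand, with 1 ERR match, and its window also holds an NRF1 match outside these bases. Ndufa3 is at chr7:3617253-3617372, plus strand, with none of these motifs in the bases shown, while its window holds a match to AAGATGG (YY1) outside them.
Cox6a1: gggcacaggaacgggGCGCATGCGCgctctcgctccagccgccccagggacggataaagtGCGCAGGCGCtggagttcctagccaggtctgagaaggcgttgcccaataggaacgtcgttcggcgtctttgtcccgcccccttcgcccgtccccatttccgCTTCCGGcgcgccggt
Sdha: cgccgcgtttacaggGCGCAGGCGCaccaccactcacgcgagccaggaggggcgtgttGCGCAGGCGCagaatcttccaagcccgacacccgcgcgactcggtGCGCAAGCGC
Atp5g3: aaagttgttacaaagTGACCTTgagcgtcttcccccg
Ndufa3: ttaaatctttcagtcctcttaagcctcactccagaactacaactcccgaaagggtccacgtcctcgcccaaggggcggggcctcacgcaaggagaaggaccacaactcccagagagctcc

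A window was given for 65 of the 79 members. The NRF1 letters were found in 21.5% of them, against 5.19% of the windows of all 27025 genes in the table. The GABP letters were in 26.2% against 9.93%, the ERR letters in 10.8% against 5.38%, and AAGATGG (YY1) in 15.4% against 7.28%. Any of these motifs occurred in 37 of the 65 windows (56.9%) and in 24.5% of all windows. By complex, NRF1 letters were in 4 of 31 windows for I (12.9%), 2 of 3 for II (66.7%) and 1 of 5 for III (20%). They were in 1 of 11 for IV (9.09%) and 6 of 15 for V (40.0%). Several of these numbers are too small to compare complexes. A match describes these letters in this window and shows neither binding nor use.

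The tissue label was borne out by the cardiomyocyte genes Myh6 (14.36 to 14.48 log2 units over the 45 arrays), Tnnt2 (14.12 to 14.23) and Actc1 (14.33 to 14.51). Other tissue in the samples varied: the fat gene Adipoq ranged from 4.07 to 11.24, the brown fat gene Ucp1 from 4.24 to 10.87, and the atrial gene Sln from 4.47 to 13.16. Sln was lowest in RW-MS 2, 6 and 8 (4.47, 5.37 and 5.42). RW-SS 7 had a Gapdh 3′ minus 5′ difference of 0.94 against a median of 0.29, a sign of RNA quality. The mean of a list of 4 lung genes was raised in RW-SC 7 and 8, DIO-SC 5 and DIO-SS 8, called the lung arrays below. The lung surfactant genes Sftpc (4.82 to 5.54) and Sftpb (5.47 to 6.28) stayed low on all 45 arrays. Whether the lung arrays held lung tissue was not tested. In bulk tissue, fewer cells of a type and less RNA per cell cannot be told apart, in any result given here.

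The members were steady. A total of 68 of 79 had a mean above 12 log2 units, where only 1.9% of all genes lay, and the brightest probe set of the table reached 14.77. The 5 members below 8 were Ndufb1, Cox4i2, Cox6b2, Cox7c and Cox8c. Signal depends on the probe set, so these values do not rank the genes. Within groups, the residual standard deviation (SD) had a median of 0.042 over the members, 0.111 over all 9295 genes tested and 0.054 over the genes above 12. The largest difference between any 2 groups compared had a median of 0.068 per member and of 0.180 per gene over all genes tested. It exceeded 1.2-fold (0.263 log2 units) for 2 members, Cox7c and Cox8c. Those 2 are among the dim ones, and the bright members sat near the top of the scale. What a bright signal does to the size of a change was not tested.

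Complex by complex, the group means stayed within 0.04 log2 units of the overall mean. Each array was given the mean, over the members of a complex, of the value minus that member's mean over 45 arrays. Complex III had a mean of -0.036 ± 0.026 (SD, n = 7) in RW-SS, and the other groups lay between -0.012 and 0.017. Complex I was at -0.024 ± 0.032 in RW-SS and 0.018 ± 0.048 (n = 8) in RW-MS. Complex II was highest in DIO-SS (0.026 ± 0.012, n = 8). Complex V lay between -0.012 (RW-SS) and 0.0093 (RW-SC). Over all its members, complex IV was highest in RW-SS (0.027 ± 0.026, n = 7) and lowest in DIO-SS (-0.031 ± 0.018, n = 8). All 8 DIO-SS arrays were below zero and all 7 RW-SS arrays above it. Over the 10 complex IV members above 12 alone, RW-SS was at -0.0033 and no longer the highest, and DIO-SS was at -0.030. Without Cox6a1, the other 9 were at -0.0107 in RW-SS, 0.0175 in RW-MS (the highest) and -0.021 in DIO-SS (the lowest). The place of RW-SS in complex IV thus depended on which members were read. No test was run on these means.

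**Figure D1:**
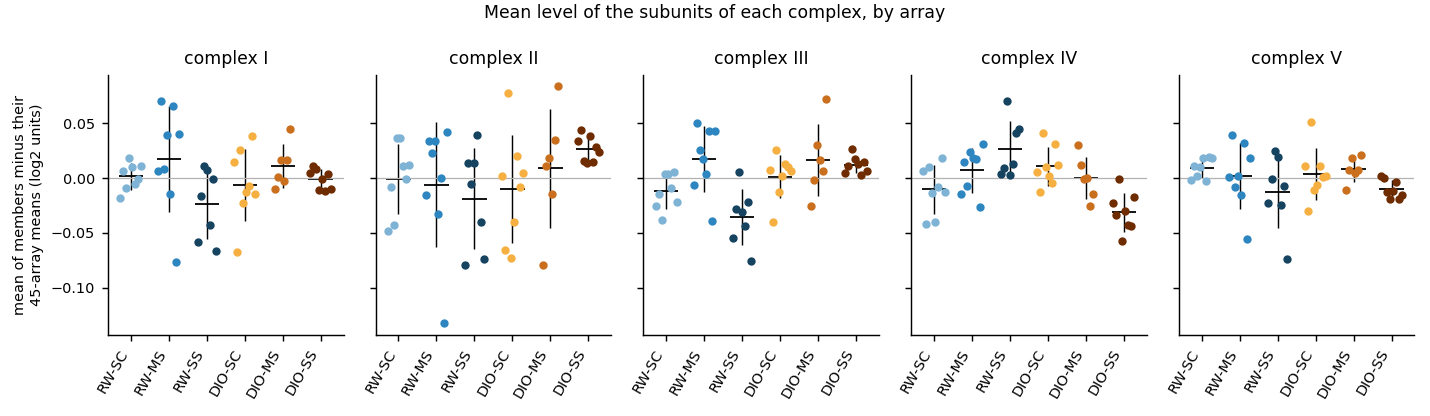
Mean of the members of each complex on each of the 45 arrays, in log2 units relative to each member's mean over all arrays, by group; bars show the group mean and vertical lines the SD. Group means lie within 0.04 of zero in all 5 complexes. Over all its members, complex IV is highest in RW-SS and lowest in DIO-SS. Over its members above 12 log2 units alone, RW-SS is not the highest.

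Single arrays moved further than groups. RW-SS 7 was at -0.067 for complex I, -0.074 for II, -0.076 for III and -0.074 for V, but at 0.045 for IV. RW-MS 7 was at -0.077 for I and -0.13 for II. After the group means were removed, complexes I, II, III and V rose and fell together from array to array, with a correlation of 0.85 between I and V, 0.83 between I and III, 0.78 between III and V, 0.77 between II and III, 0.73 between I and II and 0.72 between II and V. Complex IV correlated with them at 0.03 to 0.31. Over members above 12 alone, the first 4 complexes correlated at 0.80 to 0.84 and complex IV with them at 0.15 to 0.24. Without Cox6a1, its 9 other such members gave 0.74 with I, 0.62 with II, 0.63 with III and 0.60 with V. These are descriptions over 45 arrays, whose values share the hybridisation and the normalization. Between single members, the mean correlation within a complex was 0.33 for I, 0.45 for II, 0.18 for III, 0.044 for IV and 0.19 for V.

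Mainstream smoke left the subunits nearly where they were. In RW mice 1 of 79 members rose and 0 fell (1.27%), while 6.86% of all genes tested passed limma's threshold of adjusted p below 0.05 (2.86% higher, 4% lower, and 6.81% of the genes above 12 in either direction). In DIO mice 1 rose and 0 fell, against 4.55% of all genes (3.66% higher, 0.893% lower, and 5.11% of those above 12). At an unadjusted p below 0.05 there were 8 and 5 members. The 95% confidence interval of the change lay within 1.2-fold for 97.5% of members in each diet. It did so for 81.8% (RW) and 79.6% (DIO) of all genes. Among the genes above 12 the shares were 95.7% and 95.3%, close to those of the members. The 2 members past the threshold are both of complex I and are described with it.

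Sidestream smoke gave more calls, still fewer than the genome at large. In RW mice 3 members were higher and 7 lower (12.7%), against 24.6% of all genes (11.7% higher, 13% lower) and 20% of genes above 12. After a further quantile normalization the split was 4 higher and 5 lower, and with each array centred on its median 3 and 1. In DIO mice 3 were higher and 7 lower (12.7%), against 31.8% of all genes (23% higher, 8.82% lower) and 14% of those above 12. Here the scale mattered: the median change of all genes was 0.042, and with centred arrays 0 members were higher and 29 lower. For counts after quantile normalization, centring or any other alternative, here and below, no share of all genes under the same setting is given. Such counts do not set the listed genes apart from the rest. The median change over the members was -0.016 in RW and -0.0033 in DIO mice. Both smokes were also set against each other. In RW mice 0 members were higher and 8 lower in SS than in MS (5.82% of all genes called, 2.19% higher and 3.63% lower, and 8.51% of those above 12). Without RW-MS 2 or RW-SS 7 that count was 1, and centring left 1 higher and 1 lower. With the atrial gene mean in the model, an alternative added after the values were seen, 2 were higher and 0 lower. In DIO mice 0 were higher and 1 lower (2.55% of all genes called, 1.59% higher and 0.958% lower, and 0% of those above 12), and with centred arrays 0 and 4.

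The diet was compared at each exposure. In air, 10 members were higher and 3 lower in DIO-SC than in RW-SC (16.5%), against 20.3% of all genes (6.92% higher, 13.3% lower) and 20.9% of those above 12. Quantile normalization gave 4 and 5, and centring 11 and 0. Under mainstream smoke 2 were higher and 1 lower (3.8%), against 10.6% of all genes (5.14% higher, 5.45% lower) and 15.7% of those above 12, and quantile normalization gave 2 and 3. Under sidestream smoke 15 were higher and 5 lower (25.3%), against 32.6% of all genes (19.7% higher, 12.9% lower) and 30.6% of those above 12. Quantile normalization turned that split to 6 and 14, and centring to 0 and 17, so no direction can be given for the members as a whole. The 3 diet comparisons share no array. A member had the same sign in all 3 in 40.5% of cases (18 higher, 14 lower), against 37.1% of all genes. It was called the same way in at least 2 of them for 6 members (7.59%), against 9.71% of all genes. Those 6 were Ndufa3, Ndufv3, Uqcrc2, Uqcrfs1 and Cox7a2l, all higher, and Ndufs7, lower. In the mean of the 3 comparisons, chosen after the values were seen, 11 members were higher and 11 lower (27.8%), against 30.7% of all genes (15.1% higher, 15.6% lower) and 40.4% of those above 12. Quantile normalization gave 6 and 14.

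Whether the smoke response differed between diets was tested as an interaction, the change in DIO minus the change in RW mice. For mainstream smoke 0 of 79 members passed in limma, 3 had an unadjusted p below 0.05, and 0.226% of all genes passed. For sidestream smoke 3 were higher and 5 lower (10.1%), against 28.4% of all genes (18.3% higher, 10.1% lower) and 10.2% of those above 12. Centring gave 0 and 14, and quantile normalization 0 and 4. Over the 11 comparisons so far, without the mean over exposures, 37 members (46.8%) were called at least once, against 64.5% of all genes. By complex these were 18 of 34 in I, 1 of 4 in II, 4 of 8 in III, 9 of 16 in IV and 5 of 17 in V. Of the 75 single calls, 36 held without any 1 array, and 8 held in addition under every alternative run. These were Cox8c in 5 comparisons drawn from the same 4 groups, Ndufb1 in RW-SS, and Ndufa3 and Cox6b2 in DIO-SC against RW-SC.

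**Figure D2:**
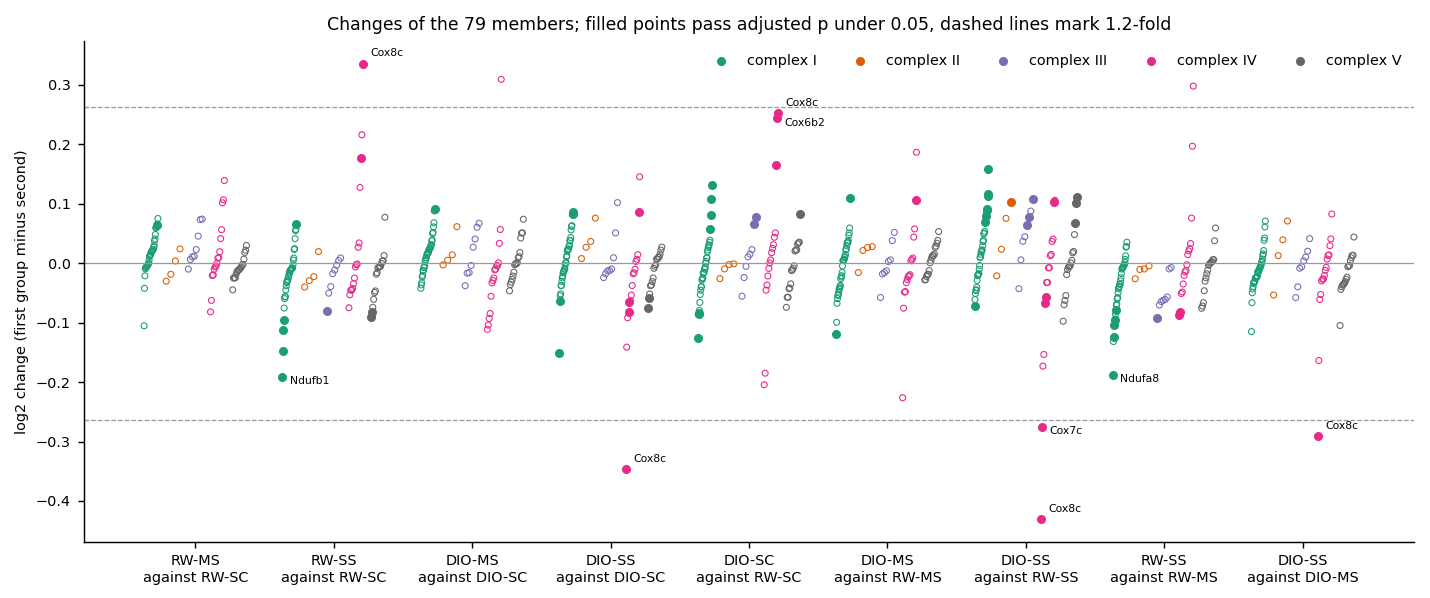
Log2 change of each of the 79 members in the 9 pairwise comparisons, grouped by complex; filled points have a limma adjusted p below 0.05 and dashed lines mark 1.2-fold. Nearly all points lie inside the dashed lines, and Cox8c and Cox7c lie outside them.

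Complex I takes electrons from NADH, and the diet calls in it went in both directions. Ndufa3, a small accessory subunit, read 13.35, 13.38 and 13.44 (lowest, median, highest) in RW-SC and 13.47, 13.51 and 13.52 in DIO-SC. These groups did not overlap, as did not 4.05% of all genes. The rise was 0.11 ± 0.023 (SE, adjusted p = 0.000901). In RW-MS it read 13.26, 13.41 and 13.45 and in DIO-MS 13.46, 13.49 and 13.52, again without overlap (2.38% of all genes). There it rose by 0.11 ± 0.025 (adjusted p = 0.00285). Under sidestream smoke RW-SS (13.31, 13.36, 13.45) and DIO-SS (13.40, 13.44, 13.47) overlapped, and the rise of 0.070 ± 0.024 (adjusted p = 0.0243) was lost without RW-SS 1 or 5. It was 0.041 after quantile normalization (adjusted p = 0.191) and 0.025 with centred arrays (adjusted p = 0.509). Averaged over exposures, Ndufa3 rose by 0.096 ± 0.014 (adjusted p = 8.16e-07), and by 0.068 after quantile normalization (adjusted p = 0.00014).

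Ndufv3, an accessory part of the arm that binds NADH, was also higher in DIO hearts in air and under sidestream smoke, and was not called under mainstream smoke. It read 13.43, 13.47 and 13.53 in RW-SC and 13.52, 13.56 and 13.64 in DIO-SC (0.081 ± 0.026, adjusted p = 0.0256). That call ended without RW-SC 3 or DIO-SC 7, and after quantile normalization (0.057, adjusted p = 0.0903). RW-SS (13.34, 13.46, 13.53) and DIO-SS (13.53, 13.57, 13.63) did not overlap, as did not 7.21% of all genes, and the rise was 0.12 ± 0.027 (adjusted p = 0.00122), or 0.071 with centred arrays (adjusted p = 0.0649). The core subunits were not all alike. Ndufs7, which carries an iron-sulfur cluster next to the ubiquinone site, fell by 0.086 ± 0.028 in air (adjusted p = 0.0251, lost without RW-SC 4 or DIO-SC 2 and, at 0.196, with centred arrays), from 12.88, 12.94 and 13.05 to 12.80, 12.86 and 12.95. It fell by 0.12 ± 0.030 under mainstream smoke (adjusted p = 0.00679, and 0.100 after quantile normalization) and showed no call under sidestream smoke. Ndufs1, the largest core subunit, rose by 0.11 ± 0.036 in DIO-SS against RW-SS (adjusted p = 0.0134), and with centred arrays its change was 0.068 (adjusted p = 0.146).

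Ndufb9, Ndufa5 and Ndufa12, all accessory subunits, were lower with diet. Ndufb9 read 13.48, 13.52 and 13.56 in RW-SC and 13.38, 13.44 and 13.47 in DIO-SC, with no overlap, and fell by 0.083 ± 0.020 (adjusted p = 0.00237). With centred arrays its change was -0.049 (adjusted p = 0.165), and with the mean of its probe sets -0.015 (adjusted p = 0.772). Averaged over exposures it fell by 0.061 ± 0.012 (adjusted p = 9.79e-05), and with the mean of the probe sets the change was -0.024 (adjusted p = 0.356). Ndufa5 fell by 0.13 ± 0.033 in air (adjusted p = 0.00579). With the mean of its probe sets the change was -0.074 (adjusted p = 0.0635). Its adjusted p was 0.0631 with centred arrays and 0.0522 without the lung arrays. Ndufa12 fell by 0.055 ± 0.014 over all exposures (adjusted p = 0.00183). For Ndufa5 another probe set of the gene had the opposite sign in that mean. Ndufb6 was called 0.13 higher in air, but its other probe set did not share the sign and the call was lost with the mean of the probe sets.

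Smoke calls in complex I included Ndufb1, an accessory subunit of the membrane arm. Its probe set was dim for a subunit found in every tissue, and whether it stands for the gene's main transcript was not tested. It read 7.61, 7.72 and 7.76 in RW-SC and 7.38, 7.53 and 7.61 in RW-SS. The groups met at 7.61, and it fell by 0.19 ± 0.045 (adjusted p = 0.00168). Without RW-SS 7 the change was -0.17. In RW-MS it read 7.28, 7.63 and 7.69 (change -0.11 ± 0.044, adjusted p = 0.147), and its 3 DIO groups had medians of 7.60 to 7.64. The sidestream interaction of 0.17 ± 0.063 (adjusted p = 0.0401) was lost with centred arrays (0.090, adjusted p = 0.389) and without RW-SS 7 (0.15, adjusted p = 0.07). The gene is represented by that 1 probe set. Ndufb6 fell by 0.15 ± 0.036 in DIO-SS against DIO-SC (adjusted p = 0.00157). With the mean of its probe sets the change was -0.055 (adjusted p = 0.0899), and its other probe set did not share the sign.

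Among the brighter accessory subunits, Ndufb10 fell by 0.095 ± 0.028 (adjusted p = 0.0105) and Ndufs5 by 0.11 ± 0.033 (adjusted p = 0.0107) in RW-SS. Neither passed with centred arrays. Ndufa8 fell by 0.15 ± 0.053 (adjusted p = 0.0369), and its call ended without any of 10 single arrays, with an adjusted p of up to 0.0921. Against RW-MS it was 0.19 ± 0.053 lower (adjusted p = 0.0283), a call that 4 single arrays each ended. Ndufa1, needed to anchor the membrane arm, rose by 0.065 ± 0.022 (adjusted p = 0.0242). That call was lost without RW-SC 5 or RW-SS 4. In the mainstream groups, Ndufab1, the acyl carrier protein of mitochondria, read 13.01, 13.05 and 13.06 in RW-SC and 13.08, 13.10 and 13.15 in RW-MS. The groups did not overlap (1.11% of all genes), yet the rise of 0.064 ± 0.019 (adjusted p = 0.0365) ended without any of 9 single arrays and was 0.011 with the mean of the probe sets (adjusted p = 0.932).

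Ndufb3, a short membrane-arm subunit, rose in DIO mice with both smokes, which share the same air controls. It read 11.39, 11.50 and 11.54 in DIO-SC, 11.57, 11.58 and 11.62 in DIO-MS and 11.53, 11.57 and 11.64 in DIO-SS. DIO-MS did not overlap with air (1.99% of all genes), and DIO-SS did at its lower end. The rises were 0.092 ± 0.027 (adjusted p = 0.0387) and 0.082 ± 0.025 (adjusted p = 0.0104). The first was lost without any of 10 single arrays, and the second became 0.022 with centred arrays (adjusted p = 0.617). In RW-SS against RW-MS, Ndufc1 fell by 0.079 ± 0.022 (adjusted p = 0.0257) with no overlap between the groups (0.42% of all genes). Without RW-SS 7 its adjusted p was 0.0614. Of 34 members of complex I, 16 were called nowhere among the 11 comparisons, among them Ndufv1 and Ndufv2, core subunits of the NADH-binding arm. Ndufa4, grouped here by its symbol, is now counted with complex IV and was also called nowhere.

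Complex II, succinate dehydrogenase, is both an enzyme of the citric acid cycle and an entry point to the chain. It changed in 1 of its 4 members and 1 of the 11 comparisons. Sdha, the flavoprotein subunit, read 12.31, 12.42 and 12.49 in RW-SS and 12.46, 12.52 and 12.57 in DIO-SS, with a small overlap. It rose by 0.10 ± 0.034 (adjusted p = 0.0171), in 8 of 8 arrays. The call ended without RW-SS 1, and with centred arrays the change was 0.058 (adjusted p = 0.203), and with the mean of its probe sets 0.066 (adjusted p = 0.103). The other 4 groups had Sdha medians of 12.42 to 12.45. Sdhb, the iron-sulfur subunit, and the membrane anchors Sdhc and Sdhd were called nowhere, and the largest difference between groups compared was 0.075, for Sdhc in DIO-SS against RW-SS. The 3 members most like Sdha over the arrays, by correlation of residuals, were Ndufs1 (0.82), Atp5o (0.80) and Ndufs7 (0.71).

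Complex III passes electrons from ubiquinol to cytochrome c. Its Rieske iron-sulfur protein, Uqcrfs1, was higher in DIO hearts in air and under sidestream smoke. Under mainstream smoke Uqcrfs1 did not pass (change 0.052). It read 13.06, 13.08 and 13.12 in RW-SC and 13.11, 13.18 and 13.20 in DIO-SC, with a slight overlap, and rose by 0.079 ± 0.025 (adjusted p = 0.024, and 0.095 after quantile normalization). RW-SS read 12.85, 13.08 and 13.10 and DIO-SS 13.13, 13.15 and 13.19, without overlap. Here it rose by 0.11 ± 0.026 (adjusted p = 0.00167). Without RW-SS 7, the array at 12.85, the rise was 0.075 (adjusted p = 0.00476). With centred arrays it was 0.063 (adjusted p = 0.139). Over the 45 arrays the residuals of Uqcrfs1 correlated at -0.71 with the Gapdh 3′ minus 5′ difference. The part of RNA quality in its group differences was not tested. Averaged over exposures it rose by 0.080 ± 0.015 (adjusted p = 7.3e-05) and kept that call in all 9 alternatives and without any 1 array.

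The core protein Uqcrc2 rose by 0.065 ± 0.024 in DIO-SC (adjusted p = 0.0442), from 13.34, 13.41 and 13.46 to 13.41, 13.46 and 13.53, but 9 single arrays each ended the call. Its change averaged over exposures was 0.044 (adjusted p = 0.0151), and 0.013 after quantile normalization (adjusted p = 0.499). Uqcr11, a small subunit beside the Rieske protein, read 13.24, 13.27 and 13.29 in RW-SC and 13.15, 13.17 and 13.25 in RW-SS. It fell by 0.080 ± 0.023 (adjusted p = 0.00916) in 7 of 7 arrays, and by 0.061 with centred arrays (adjusted p = 0.0871). Against those same RW-SS arrays it was 0.078 ± 0.023 higher in DIO-SS (adjusted p = 0.00873), and 0.033 with centred arrays (adjusted p = 0.353). Uqcrh, the hinge protein, separated DIO-SC (12.43, 12.48, 12.51) from DIO-MS (12.53, 12.54, 12.57) without overlap, and did not pass (0.067 ± 0.022, adjusted p = 0.072). Uqcrh also separated DIO-MS from DIO-SS (1.2% of all genes), with a change of -0.058 ± 0.022 (adjusted p = 0.122).

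**Figure D3:**
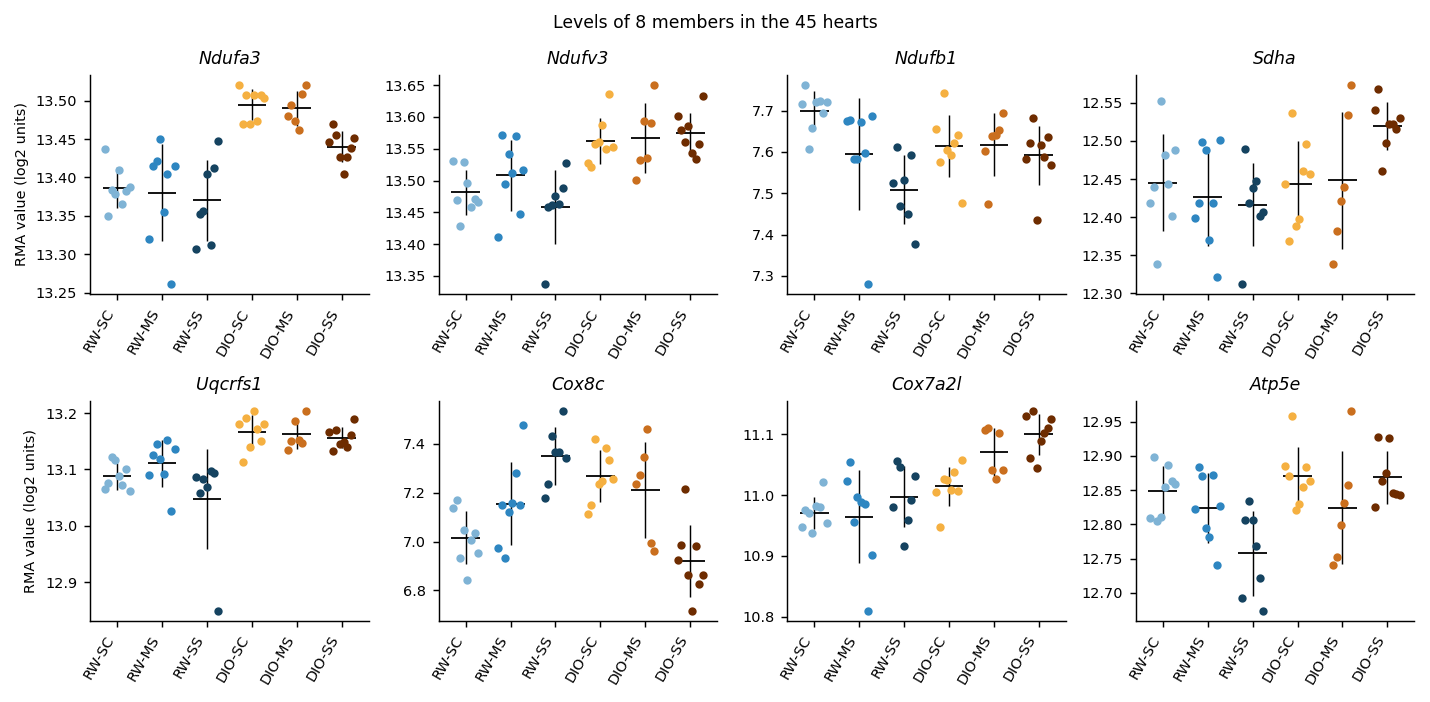
Log2 values of 8 members on every array by group: Ndufa3, Ndufv3, Ndufb1, Sdha, Uqcrfs1, Cox8c, Cox7a2l and Atp5e. Ndufa3 in DIO-SC and DIO-MS lies above the RW group of the same exposure, and Cox8c is highest in RW-SS (median 7.37) and lowest in DIO-SS (median 6.89).

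Complex IV held the largest change of all members. Cox8c, a form of subunit VIII known mainly from testis, read 6.84, 7.02 and 7.17 in RW-SC and 7.18, 7.37 and 7.54 in RW-SS, without overlap (5.2% of all genes). It rose by 0.34 ± 0.072 (adjusted p = 0.000626). In DIO mice it moved down, from 7.11, 7.25 and 7.42 in air to 6.72, 6.89 and 7.21 under sidestream smoke. That fall was 0.35 ± 0.070 (adjusted p = 0.000251). The interaction was -0.68 ± 0.10 (adjusted p = 3.23e-05). Air and sidestream groups of the DIO mice overlapped.

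Read by diet, Cox8c in the same 4 groups also moved in opposite directions, which restates the interaction above. It was 0.25 ± 0.070 higher in DIO-SC than in RW-SC (adjusted p = 0.00826) and 0.43 ± 0.072 lower in DIO-SS than in RW-SS (adjusted p = 1.86e-05). These comparisons share no array with each other, but their arrays are those of the smoke comparisons above. All of these calls held under every alternative run, with centred arrays giving 0.36 in RW-SS and -0.41 in DIO-SS. The mainstream groups had medians of 7.15 (RW) and 7.25 (DIO), and neither differed from air past the threshold. In DIO-SS against DIO-MS Cox8c was the 1 member called, lower by 0.29 ± 0.075 (adjusted p = 0.0333, 7 of 8 arrays), and 8 single arrays each ended that call (adjusted p up to 0.116). Cox8c has 1 probe set on this array and a dim signal. The members most like it over the arrays were Cox7a1 (0.54), Ndufa9 (0.47) and Uqcrq (0.44).

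Other dim members were Cox6b2, Cox4i2 and Cox7c. Cox6b2, the testis form of subunit VIb, read 5.84, 6.07 and 6.19 in RW-SC and 6.06, 6.30 and 6.47 in DIO-SC, and rose by 0.24 ± 0.068 (adjusted p = 0.00833), a call that held without any 1 array. Cox4i2, the form of subunit IV known from lung and low oxygen, was 0.18 ± 0.063 higher in RW-SS (adjusted p = 0.034, 6 of 7 arrays) and 0.17 ± 0.061 higher in DIO-SC (adjusted p = 0.0483). Those calls ended without any of 9 and 10 single arrays. Its interaction of -0.32 ± 0.088 (adjusted p = 0.00679) held without any 1 array, but was -0.21 after quantile normalization (adjusted p = 0.0726). Its partner Cox4i1, the common form in heart, was called in no comparison. Cox7c, a subunit present in all tissues, read 5.16, 5.31 and 5.71 in RW-SS and 4.79, 5.05 and 5.46 in DIO-SS. Its probe set is near the dim limit, and whether it stands for the gene's main transcript was not tested. It fell by 0.28 ± 0.096 (adjusted p = 0.0245). The change was -0.21 without RW-SS 7 (adjusted p = 0.0817) and -0.19 after quantile normalization (adjusted p = 0.173). RW-SS did not overlap with RW-MS (4.81, 5.07, 5.15), where the change of 0.30 did not pass (adjusted p = 0.055).

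Cox7a2l, which helps join complexes III and IV into supercomplexes and is shortened in C57BL/6 mice, read 10.92, 10.99 and 11.06 in RW-SS and 11.04, 11.11 and 11.14 in DIO-SS. It rose by 0.10 ± 0.028 (adjusted p = 0.00392). The change was 0.063 after quantile normalization (adjusted p = 0.0771) and 0.058 with centred arrays (adjusted p = 0.140). Under mainstream smoke diet raised it by 0.11 ± 0.029 (adjusted p = 0.0110), and over all exposures by 0.084 ± 0.016 (adjusted p = 5.85e-05). Cox6b1, the common form of subunit VIb, read 13.56, 13.59 and 13.63 in DIO-SC and 13.50, 13.52 and 13.56 in DIO-SS and fell by 0.065 ± 0.019 (adjusted p = 0.00766). With the mean of its probe sets the change was -0.046 (adjusted p = 0.0563). Cox7a1, the muscle form of subunit VIIa, fell by 0.082 ± 0.025 in the same comparison (adjusted p = 0.0108), and its change was -0.049 after quantile normalization (adjusted p = 0.125). Its partner Cox7a2 fell by 0.057 in DIO-SS against RW-SS (adjusted p = 0.0292), a call that 3 single arrays each ended. With the mean of its probe sets the change was -0.041 (adjusted p = 0.127). Cox8b, the muscle form of subunit VIII, was 0.081 lower in RW-SS than in RW-MS (adjusted p = 0.0439), a call that 8 single arrays each ended. Cox6a2, the muscle form of subunit VIa, was called nowhere.

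Cox6a1 stood apart from most of its complex, and Cox8a shared its relation to fat transcripts, given below. It read 12.70, 12.93 and 13.18 in RW-SC, 12.57, 12.92 and 13.10 in RW-MS and 12.60, 12.83 and 13.14 in RW-SS. In DIO mice it read 12.63, 12.74 and 12.92 in air, 12.59, 12.63 and 12.74 with mainstream and 12.51, 12.67 and 13.02 with sidestream smoke. Every DIO group overlapped its RW counterpart. The single diet comparisons gave -0.19 ± 0.074, -0.23 ± 0.080 and -0.17 ± 0.076, with adjusted p of 0.0676, 0.0584 and 0.0748. Averaged over exposures it fell by 0.19 ± 0.044 (adjusted p = 0.000622), and both of its probe sets had that sign.

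Within groups, Cox6a1 followed fat transcripts. The white fat list, of which 8 of 11 genes were on the array, had group means of 0.24, 0.13 and 0.30 in RW-SC, RW-MS and RW-SS and of -0.43, -0.19 and -0.056 in the DIO groups. It ranged over the arrays of a group from -1.46 to 1.18 in RW-MS and from -1.17 to 0.56 in DIO-SC. With group means removed, Cox6a1 correlated with it at r = 0.86 and rho = 0.87 over 45 arrays, and within single groups at 0.75 to 0.96. The permutation test gave an adjusted p of 6e-05 over 24 relations, the smallest these resamples could give, and r was 0.86 without the 2 farthest arrays. With the brown fat list (8 of 11 on the array) r was 0.88 and rho 0.84. Cox8a, the common form of subunit VIII, gave 0.71 with white and 0.74 with brown fat, and correlated at 0.81 with Cox6a1. Muscle forms, the common form Cox7a2 and the testis form Cox6b2 ran weakly the other way. Cox7a2 gave -0.42 with white fat (adjusted p = 0.024) and Cox6b2 -0.44 (adjusted p = 0.012). Cox6a2 gave -0.43 with white fat (adjusted p = 0.015) and Cox7a1 -0.49 (adjusted p = 0.012), while Cox8b gave -0.14 (adjusted p = 0.54). These relations were chosen after the values were seen. With the white fat mean in the model, the diet change of Cox6a1 was -0.12 (adjusted p = 0.000413). With the brown fat mean it was -0.074 (adjusted p = 0.023). Over all 79 members the median correlation was -0.34 with the white fat list and 0.31 with the heart muscle list.

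**Figure D4:**
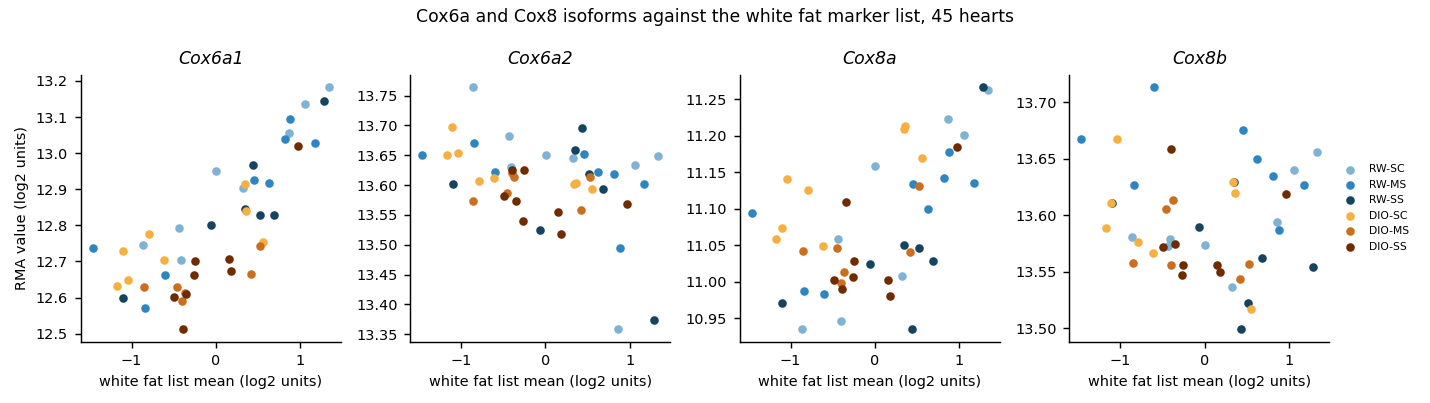
Log2 values of Cox6a1, Cox6a2, Cox8a and Cox8b against the white fat list mean (log2 units relative to each gene's mean) on the 45 arrays, by group. Cox6a1 and Cox8a climb with the fat list (r = 0.86 and 0.71 with group means removed), and Cox6a2 and Cox8b do not.

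Complex V, the ATP synthase, had calls in 5 of 17 members. Atp5e, the epsilon subunit of the central stalk, read 12.81, 12.86 and 12.90 in RW-SC and 12.67, 12.77 and 12.83 in RW-SS. The groups overlapped, and it fell by 0.091 ± 0.030 (adjusted p = 0.0221). Without RW-SS 7 the fall was 0.077 (adjusted p = 0.0559), and RW-SS 1 also ended the call. DIO-SS read 12.83, 12.85 and 12.93, which was 0.11 ± 0.030 above RW-SS (adjusted p = 0.0042), and 0.066 with centred arrays (adjusted p = 0.116). Atp5md, a small subunit of the membrane part that helps dimers form, fell by 0.082 ± 0.025 in RW-SS (adjusted p = 0.0124), and by 0.059 without RW-SS 7 (adjusted p = 0.0457). After quantile normalization its change was -0.045 (adjusted p = 0.190). It had a sidestream interaction of 0.11 ± 0.034 (adjusted p = 0.0162), and of 0.030 with centred arrays (adjusted p = 0.674). Atp5j, of the peripheral stalk, rose by 0.10 ± 0.035 in DIO-SS against RW-SS (adjusted p = 0.0249), and by 0.050 without RW-SS 7 (adjusted p = 0.108).

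Atp5pb, the peripheral stalk subunit b, was called 0.083 higher in DIO-SC against RW-SC and 0.076 lower in DIO-SS against DIO-SC. Other probe sets of Atp5pb did not share these signs, and both calls were lost with the mean of the probe sets. The genes of the ring subunit c make the same mature protein. Of these, Atp5g3 was 0.045 ± 0.012 higher with diet over all exposures (adjusted p = 0.00305) and 0.018 after quantile normalization (adjusted p = 0.243). Atp5g1 fell by 0.049 ± 0.015 (adjusted p = 0.0109). Atp5g2 separated DIO-MS from DIO-SS without overlap (11.81, 11.85 and 11.90 against 11.69, 11.77 and 11.78), and its change was -0.10 ± 0.043 (adjusted p = 0.147). Atp5a1 and Atp5b, the alpha and beta subunits of the catalytic head, were called in none of the 11 comparisons.

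Assembly factors build the complexes and are not parts of them. They were called more often than the subunits in some comparisons and less often in others, and the difference was not tested. This list held 53 genes, 36 of them tested. Their median level was 9.06 log2 units and that of the subunits 13.12. The part of signal level in the size and number of changes was not tested. In RW-SS 0 rose and 18 fell, with a median change of -0.12, beside -0.016 for the subunits. Of all genes 13% were lower there. After quantile normalization 12 fell, with centred arrays 14, and without RW-SS 7 again 18. In DIO-SC against RW-SC 0 rose and 4 fell (11.1%, against 20.3% of all genes). In DIO-SS 8 rose and 1 fell (25%, against 31.8% of all genes), which became 3 and 2 after quantile normalization, with the median change going from 0.032 to -0.027. The diet comparison under sidestream smoke and the sidestream interaction use the same RW-SS arrays again. In DIO-SS against RW-SS 21 rose and 1 fell (median 0.13, 61.1% called against 32.6% of all genes), and 16 and 1 after quantile normalization. The sidestream interaction had 21 higher and 1 lower (61.1%, against 28.4% of all genes, 18.3% higher and 10.1% lower). After quantile normalization it had 5 and 1. With mainstream smoke 0 rose and 2 fell in RW mice (5.56%, against 6.86% of all genes). In DIO mice 0 rose and 0 fell (4.55% of all genes called). The red cell list (5 of 11 genes on the array) was at -0.18 in RW-SC and 0.38 in RW-SS, and its part in these changes was not tested.

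Ndufaf4, an early assembly factor of complex I, read 9.99, 10.06 and 10.11 in RW-SC and 9.59, 9.71 and 9.87 in RW-SS, without overlap. It fell by 0.34 ± 0.038 (adjusted p = 1.41e-08), by 0.18 ± 0.037 in RW-MS (adjusted p = 0.000989) and by 0.19 ± 0.037 in DIO-SS (adjusted p = 0.000167). Coa6, which helps deliver copper to complex IV, read 9.30, 9.42 and 9.47 in RW-SC and 8.86, 9.23 and 9.25 in RW-SS and fell by 0.23 ± 0.042 (adjusted p = 6.36e-05). Cox19, also of copper delivery, fell by 0.24 ± 0.053 (adjusted p = 0.00113), and Fastkd1, a mitochondrial RNA-binding protein, by 0.27 ± 0.055 (adjusted p = 0.000319). Surf1, needed early in complex IV assembly, fell by 0.18 ± 0.041 in DIO-SC against RW-SC (adjusted p = 0.00154). In DIO-SS it rose by 0.23 ± 0.041 over DIO-SC (adjusted p = 5.38e-05), from 8.69, 8.79 and 8.95 to 8.97, 9.03 and 9.10.

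**Figure D5:**
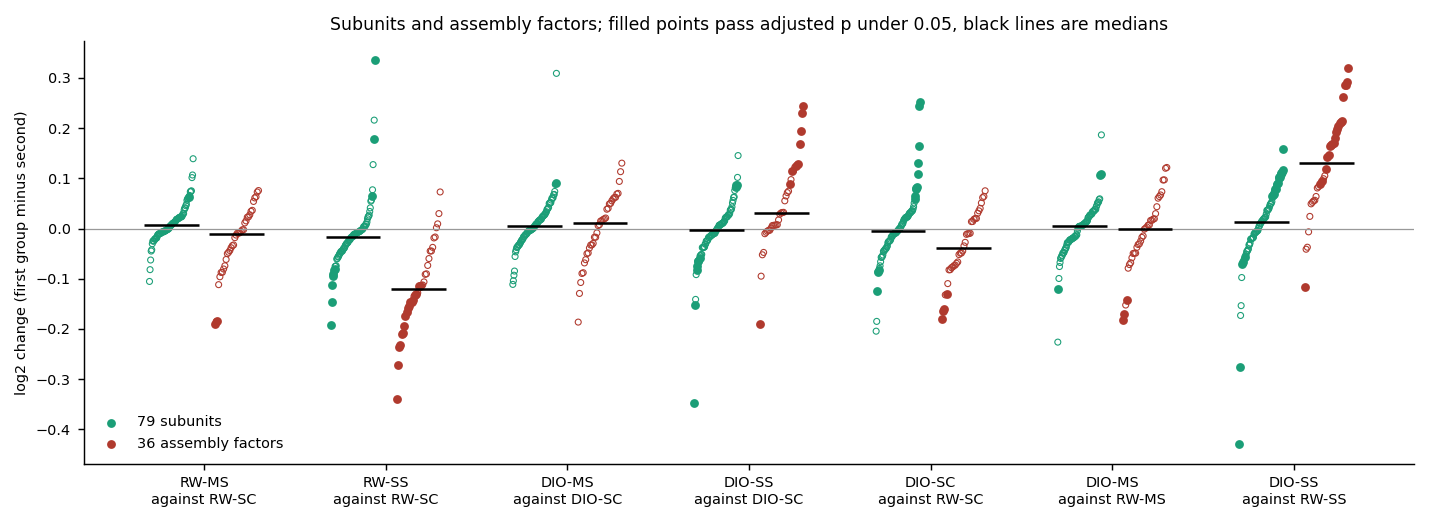
Log2 change of the 79 subunits and of the 36 assembly factors tested in 7 comparisons; points are genes and black lines medians. The assembly factors have a median of -0.12 in RW-SS against RW-SC, where the subunits have -0.016, and of 0.13 in DIO-SS against RW-SS. Their signal is lower, with a median level of 9.06 against 13.12 for the subunits.

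The other lists are given for diet over all exposures beside the 30.7% of all genes called there, and no difference between lists was tested. Among 16 tested electron carriers and ubiquinone enzymes (of 20 listed), 7 were higher and 3 lower (62.5%). Etfdh, which passes electrons from fatty acid oxidation to ubiquinone, rose by 0.36 ± 0.038, 0.38 ± 0.041 and 0.41 ± 0.039 in air, mainstream and sidestream smoke, without overlap in any of them (adjusted p = 1.47e-09, 7.35e-09 and 1.94e-10). Gpd2, the glycerol phosphate entry point, fell by 0.68 ± 0.14 over all exposures (adjusted p = 0.000119), and Coq10a, a ubiquinone-binding protein, by 0.24 ± 0.024 (adjusted p = 1.02e-10). Of 13 tested citric acid cycle enzymes (of 14 listed), 6 were higher and 0 lower (46.2%), among them Suclg1 by 0.074 ± 0.019 (adjusted p = 0.00241) and citrate synthase, Cs, by 0.059 ± 0.016 (adjusted p = 0.00352). Quantile normalization gave 4 higher and 2 lower there.

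Of 15 tested regulators (of 19 listed), 2 rose and 1 fell in RW-SS (20%, against 24.6% of all genes). Nrf1 rose by 0.33 ± 0.060 (adjusted p = 6.76e-05), from 5.31, 5.45 and 5.63 to 5.63, 5.84 and 6.07. Its signal was dim, not far above the limit of 4.90 for genes tested. Gabpa, the DNA-binding part of GABP, rose by 0.14 ± 0.035 (adjusted p = 0.00422), and Esrra fell by 0.19 ± 0.046 (adjusted p = 0.00192). The interaction for Nrf1 was -0.38 ± 0.084 (adjusted p = 0.00127). Under diet 2 regulators rose and 4 fell over all exposures (40%), with Tfam, which packs mitochondrial DNA, up by 0.11 ± 0.018 (adjusted p = 1.15e-05) and Esrrb down by 0.27 ± 0.044 (adjusted p = 6.29e-06). The mitochondrial DNA list (13 tested of 14) had 2 higher and 3 lower (38.5%), and the import list (18 tested of 19) 3 higher and 5 lower (44.4%). Beside these, the subunits had 11 higher and 11 lower of 79. Their own changes ran from -0.19 (Cox6a1) to 0.13 (Cox6b2). The Cox6b2 call was lost with the white fat or the brown fat list mean in the model.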

How the data were processed

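Total RNA of 45 hearts, 1 mouse per array and described in the labels as biological replicates, was labelled with biotin and hybridised to Affymetrix mouse arrays. The authors deposited 1 log2 value for each probe set and array, computed with RMA per the submitters' processing notes. RMA corrects background, normalizes by quantiles and summarises probes, which draws the arrays to one distribution. Its version was not stated. No depth applies to arrays; their number limits the precision. The growth protocol of the labels speaks of an LPS study, while titles and treatment text name smoke, which was followed.

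Of 22690 probe sets, 20393 had 1 gene and 691 several; 20364 were matched to RefSeq by Entrez identifier. Genes were read from their probe set of greatest average signal. The dimmest 25% of genes, with averages below 4.90, were dropped, and 9295 were tested. All 79 members passed this filter on the mean of all arrays. A model with the 6 groups was fitted to the 45 arrays in R 4.3.3 using limma 3.58.1 (lmFit, contrasts.fit, eBayes, 42.6 residual degrees of freedom with the prior, two-sided), with Benjamini-Hochberg adjustment over all genes tested in a comparison and a threshold of 0.05. Changes are log2 differences ± standard error. Figures were drawn with matplotlib 3.10.9 and pandas 2.3.3 under Python 3.11.15. The procedure was tested on simulated data.

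Named in full were, per comparison and complex, up to 3 members past the threshold with the smallest adjusted p and the member with the largest change, the isoform panel, and from each pathway list the genes past the threshold of smallest adjusted p, at most 4. The members and lists were chosen with earlier results of these data known. The alternatives were other filters, the mean of probe sets, further quantile normalization, centring and eBayes with trend. Array weights, a replicate block, only the groups compared and single arrays left out were also run. Chosen after seeing the data were tissue list means in the model, the lung arrays left out and the mean of the 3 diet comparisons. Replicate numbers did not pair the arrays. Sequences are from RefSeq, build GRCm38.p6.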

Additional observations from a re-analysis of the deposited data

Results flagged for a closer look

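Single arrays stood apart from the rest of their group in 30 of 318 groups of values checked, where chance gives about 1 in 20, and the values follow without explanation. RW-SS 7 gave 7 of them, being lowest for Atp5g2 (11.55), Atp5j (12.71), Atp5md (12.43), Ndufa10 (12.92), Ndufa4 (13.32) and Uqcrfs1 (12.85) and highest for Cox7c (5.71). Also in RW-SS, Ndufv3 was 13.34 and Cox8a 11.27 on array 1, and Cox4i2 was 5.13 on array 4. RW-MS 7 was lowest for Cox6a2 (13.49), Ndufa10 (13.07), Ndufb1 (7.28) and the complex II mean (-0.13), and RW-MS 8 was highest for Cox6b2 (6.42). In RW-SC, Atp5pb was 13.26 on array 6, and Cox6a2 (13.36) and Ndufa8 (11.92) were lowest on array 3.

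In DIO-SC, Cox7a1 (13.27), Cox7a2l (10.95) and Uqcr11 (13.20) were lowest on array 2, and Atp5e was 12.96 on array 3. In DIO-MS, Atp5j2 was 13.68 on array 3, Cox8a 11.13 on array 4, Ndufa2 12.36 on array 6 and Ndufa4 13.50 on array 2. In DIO-SS, Atp5g1 was 13.62 on array 1, Cox6a1 13.02 on array 8, Ndufa1 13.56 on array 2 and Ndufb1 7.44 on array 4.

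The sidestream response differed between diets, by the limma interaction, for 8 members (10.1%, against 28.4% of all genes). It was lower in DIO than in RW mice for Cox8c (-0.68), Cox4i2 (-0.32), Ndufb6 (-0.19), Atp5pb (-0.15) and Ndufa1 (-0.078), and higher for Ndufb1 (0.17), Atp5md (0.11) and Ndufa10 (0.11). With the mean of probe sets it was -0.072 for Ndufb6 (adjusted p = 0.125) and -0.045 for Atp5pb (adjusted p = 0.318), and other probe sets of both do not share the sign. Single arrays each ended the call of Ndufa1 (22 arrays), Ndufa10 (17) and Ndufb1 (16).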

How the results depend on the processing

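Counts of members past the threshold moved with the processing, and the split of higher to lower reversed in DIO-SS against RW-SS, from 15 and 5 to 6 and 14 (quantile) and 0 and 17 (centred). For the counts in this section no share of all genes under the same setting is given. They do not set the members apart from the rest. No single named member past the threshold reversed. The mean of all probe sets gave 0 (RW-MS against RW-SC), 6 (DIO-SS against DIO-SC) and 5 (DIO-MS against RW-MS). Without the filter on dim genes the counts were 0 for RW-MS and DIO-MS against air and 5 for RW-SS against RW-MS. Leaving out the lowest 50% gave 2, 2 and, for DIO-MS against RW-MS, 6. Quantile normalization gave 2, 0, 5 (DIO-MS against RW-MS), 3 (RW-SS against RW-MS) and 4 (sidestream interaction). Centring gave 0 for RW-MS, 4 for RW-SS, 0 for DIO-MS, 29 for DIO-SS, 2 for RW-SS against RW-MS, 4 for DIO-SS against DIO-MS and 14 for the sidestream interaction. With trend and robust eBayes these were 2 (RW-MS), 2 (DIO-MS), 7 (DIO-MS against RW-MS), 2 (DIO-SS against DIO-MS) and 13 (interaction). Array weights gave 3, 3, 20 (DIO-SS), 20 (DIO-SC), 8, 5 (RW-SS against RW-MS), 7 and 13. Only the groups compared gave 0 for both mainstream comparisons, 5 for RW-SS, 0 for DIO-MS against RW-MS, 12 for DIO-SS against RW-SS and 0 for both comparisons of the 2 smokes. The replicate block by title number gave 0, 0 and 5 (RW-SS against RW-MS), and by label number 0 (RW-MS), 4 and 0 (DIO-SS against DIO-MS). Same-numbered arrays correlated at -0.0032 and -0.019 on average, so the numbers do not pair them. Without RW-MS 2, 6 and 8 the counts were 0 (RW-MS) and 1 (RW-SS against RW-MS), and without RW-SS 7 they were 3, 2 (DIO-MS), 1 and 2.

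Among alternatives chosen after seeing the data, the atrium term gave 0 (RW-MS), 6 (DIO-MS against RW-MS) and 2 (RW-SS against RW-MS). The white fat term gave 2 (DIO-MS), 5 and 13 (interaction). Without the lung arrays the counts were 0, 0, 8 (DIO-SC), 5, 0 and 5 (interaction). Leaving out each array in turn gave 0 to 2 for RW-MS, 7 to 12 for RW-SS, 0 to 1 for DIO-MS, 8 to 11 for DIO-SS and 9 to 12 for DIO-SC. It gave 3 to 5 for DIO-MS against RW-MS, 15 to 20 for DIO-SS against RW-SS, 1 to 13 for RW-SS against RW-MS, 0 to 2 for DIO-SS against DIO-MS, 0 to 0 and 5 to 11 for the mainstream and sidestream interactions and 19 to 24 for the mean over exposures. The cause of these differences was not tested.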
